A study of Mus musculus with 4 samples.

Results

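The antioxidant and glutathione enzymes were described here in cultured mouse aortic smooth muscle cells. Members were the rows of the deposited table whose gene name fell in the glutathione S-transferase (Gst), microsomal glutathione transferase (Mgst), glutathione peroxidase (Gpx), peroxiredoxin (Prdx), superoxide dismutase (Sod), thioredoxin (Txn), thioredoxin reductase (Txnrd) or glutaredoxin (Glrx) families. To these were added Hmox1, Nqo1, Gclc, Gclm, Gsr, Gss, Srxn1, Cat, Nfe2l2 and Keap1 by name. This gave 60 genes of the 25965 in the table. The study sequenced polyadenylated RNA of vascular smooth muscle cells, the contractile cells of the arterial media, in 4 libraries. All 4 belonged to 1 group: male mice, wild type on a C57Bl/6 background and 8 to 14 weeks old, whose medial cells were grown in medium with 10% FCS (fetal calf serum) and passaged 3 to 5 times. The design therefore held no treated, knockout or uncultured arm, and the measurements were the genes' levels, their differences within a library, and their spread over like libraries. Nothing in the labels said whether the libraries came from separate animals or cultures, so the spread and the p-values below cover only the spread between these libraries, which may be technical.

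Cells remove superoxide and peroxides in relays. Superoxide dismutases turn superoxide into hydrogen peroxide, and catalase, glutathione peroxidases and peroxiredoxins reduce the peroxide. Glutathione and thioredoxin supply the electrons, and reductases recharge them with NADPH. Glutathione S-transferases join glutathione to reactive compounds. The transcription factor NRF2 (Nfe2l2), which KEAP1 marks for degradation, is known to switch on many of these genes, and in arteries superoxide is known to consume nitric oxide.

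Levels are given as deposited, as the log2 of a read count scaled by a constant of its library. Because this unit is not divided by gene length, levels of different genes were compared only per kb of exon, also on the log2 scale. A gene counted as detected with a level of at least 0 in 4 of 4 libraries, which took 30, 29, 22 and 30 reads in libraries 1 to 4. The libraries held 40342561 to 56793195 reads on genes, and members took 0.514% to 0.681% of them. The deposited scaling placed genes at other heights than median-ratio size factors, which set the typical gene equal across libraries. The shift was 0.32, 0.10, -0.30 and -0.12 in libraries 1 to 4, so statements about differences between libraries are given under both scalings. All 8 smooth muscle markers examined were detected, and their summed level ran from 13.14 in library 2 to 14.86 in library 4. Of the markers of other cells, 7 of 8 adventitial fibroblast, 5 of 8 endothelial, 4 of 6 mesothelial, 2 of 8 leukocyte and 0 of 8 erythroid genes were detected. No 2 libraries were alike within sampling noise, with a chi-square per gene between 96.9 (libraries 3 and 4) and 557 (libraries 1 and 3).

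Of the 60 members, 50 were detected (83.3%), beside 47.4% of all genes. All peroxiredoxins, superoxide dismutases, thioredoxins, thioredoxin reductases and glutaredoxins were detected, as were all the enzymes added by name. The 10 members that were not detected were Gpx2, Gpx5, Gpx6, Mgst2, Gsta1, Gsta2, Gstm3, Gstm6, Gsto2 and Gstt4. The median level over all 60 members was 6.06, 6.00, 5.49 and 5.68 in libraries 1 to 4 (5.81 ± 0.27, mean ± SD, n = 4), against 0.30 ± 0.36 for all genes in the table. Among detected genes the median level per kb was 5.17 ± 0.14 for members and 2.94 ± 0.29 for all genes.

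Per kb, the 8 highest members were Gpx4, Prdx5, Txn1, Prdx2, Gpx1, Hmox1, Prdx1 and Sod1. Apart from Hmox1, which degrades heme, and the superoxide dismutase Sod1, they encode glutathione peroxidases, peroxiredoxins and the thioredoxin that recharges peroxiredoxins. Gpx4, at 9.34 ± 0.33 per kb, was higher than 98.8% of detected genes. The lowest detected member per kb, Gstp2, was higher than 19.8% of them. The plot of levels per kb shows how the families lie along this scale.

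**Figure D1:**
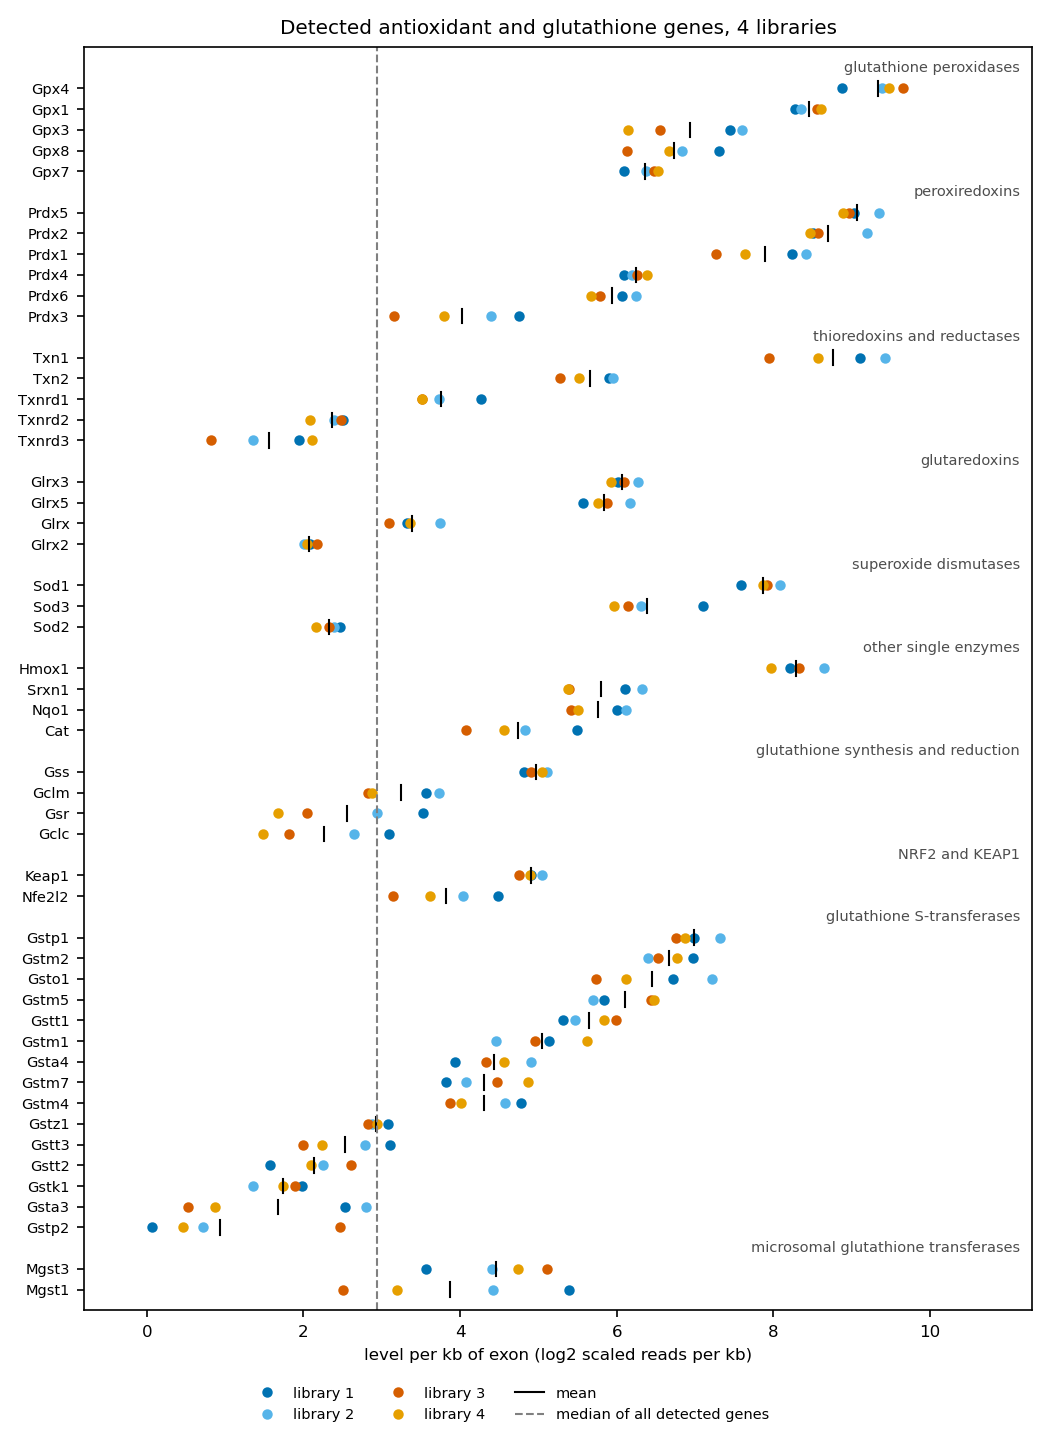
Level per kb of exon (log2 scaled reads per kb) of the 50 detected members, grouped by family, with 1 point per library, a tick at the mean and a dashed line at the median of all detected genes (2.94). Gpx4, Prdx5 and Txn1 lie at the right, and the points of Mgst1 and Gsta3 are spread more widely than those of Glrx2 or Sod2 (SDs of 1.28, 1.15, 0.07 and 0.13 as deposited, 1.02, 0.92, 0.31 and 0.20 with median-ratio factors).

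Glutathione peroxidases reduce peroxides at a selenocysteine, an amino acid encoded by a TGA codon that otherwise stops translation, or at a cysteine in some members. The coding sequences of the 5 detected members are shown around that codon (capitals), read from GENCODE M21 transcripts on GRCm38, because this codon divides the family.
Gpx4: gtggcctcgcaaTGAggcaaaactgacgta
Gpx1: gtcgcgtctctcTGAggcaccacgatccgg
Gpx3: gtagccagctacTGAggtctgacagaccaa
Gpx8: gtggctagtgacTGCcgcttcacagacaag
Gpx7: gtagctagcgaaTGTggcttcacagaccag
The capitals lie at codon 73 in Gpx4, 47 in Gpx1, 73 in Gpx3, 79 in Gpx8 and 56 in Gpx7. By their means over libraries, the 3 members with TGA were also the 3 highest of the family per kb. The 2 lower detected members carried a cysteine codon, although Gpx3 (6.94 ± 0.70 per kb) and Gpx8 (6.73 ± 0.49) did not differ beyond their spread. In library 4 this order failed, as Gpx3 (6.14 per kb) lay below both Gpx8 (6.66) and Gpx7 (6.52). Of the 3 members without reads, Gpx2 has TGA, and Gpx5 and Gpx6 have cysteine codons.

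Gpx4 (chromosome 10, 80047166 to 80056439), which reduces lipid peroxides within membranes, had levels of 9.66, 10.17, 10.43 and 10.25 in libraries 1 to 4. It was lowest in library 1 under both scalings, and its SD was 0.33 as deposited and 0.59 with median-ratio factors. Gpx1 (chromosome 9, 108339080 to 108340338), the main peroxidase of the cytosol, had levels of 8.80, 8.88, 9.08 and 9.13. Its SD was 0.16 as deposited and 0.42 with median-ratio factors, below and above the members' medians of 0.38 and 0.36. Gpx3, which is secreted into plasma, had levels of 8.31, 8.46, 7.41 and 7.0. Libraries 1 and 2 were above libraries 3 and 4, and the highest library was 2.75-fold above the lowest (2.37-fold with median-ratio factors).

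Within each library Gpx1 was lower than Gpx4 per kb, by -0.90 ± 0.22 as Gpx1 minus Gpx4. Gpx1 minus Gpx3 was 1.51 ± 0.86 per kb, positive in 4 of 4 libraries but ranging from 0.75 to 2.47. Gpx8 and Gpx7 are enzymes of the endoplasmic reticulum. Gpx8 had levels of 7.37, 6.90, 6.19 and 6.73, and Gpx7 had levels of 6.45, 6.74, 6.83 and 6.89. Gpx8 minus Gpx7 per kb was 1.22, 0.46, -0.34 and 0.13, a mean of 0.37 ± 0.66 that was smaller than its spread (exact two-sided sign-flip permutation p = 0.375, adjusted p = 0.391, n = 4). Gpx2, Gpx5 and Gpx6, known from gut, epididymis and olfactory tissue, had 0 reads in each library, and counting error allows up to 3 reads for a count of 0.

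Differences per kb between members of the same library were computed for 24 pairs. In 22 pairs the difference had the same sign in 4 of 4 libraries. Each of them had an exact permutation p (sign flips, two-sided) of 0.13, the smallest that 4 libraries allow, and the Benjamini-Hochberg adjusted p over the 24 pairs was 0.136, so no pair could pass 0.05. A difference within a library is the same under every scaling of the libraries, but it depends on the exon length used: with principal transcripts, 15 of the 24 means moved by more than their SD and 1 changed sign. The pairs are given with their families.

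**Figure D2:**
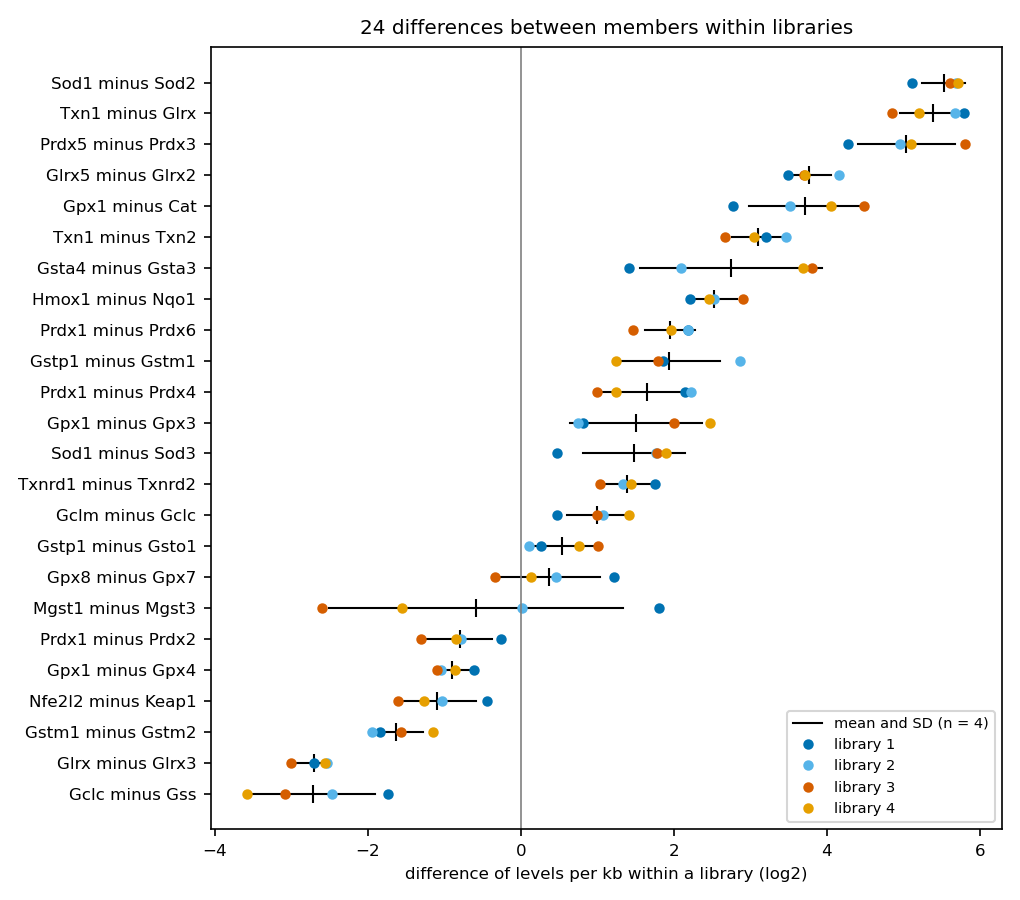
Difference of level per kb (log2) between the members of 24 pairs, 1 point per library, with the mean and SD (n = 4) in black. Sod1 minus Sod2 has the mean farthest to the right, and the points of Gpx8 minus Gpx7 and of Mgst1 minus Mgst3 lie on both sides of 0.

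Peroxiredoxins reduce peroxides at a cysteine and are recharged mostly by thioredoxin. Prdx5 (chromosome 19, 6906697 to 6910106), found in mitochondria, peroxisomes and cytosol, had levels of 10.13, 10.45, 10.06 and 9.99. The cytosolic Prdx2 (chromosome 8, 84969587 to 84974834) had levels of 10.11, 10.81, 10.18 and 10.08. Library 2 was highest for Prdx2 under both scalings, but the other 3 lay within 0.10 of each other only as deposited. With median-ratio factors the values were 9.79, 10.71, 10.48 and 10.20. The Prdx2 model shares 181 bases with Rnaseh2a on the opposite strand, and Rnaseh2a was also highest in library 2 (7.28, 8.44, 7.66 and 7.49). Whether its reads entered the Prdx2 values was not tested.

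Prdx1, the other abundant cytosolic form, had levels of 9.84, 10.03, 8.87 and 9.23. It was lower than Prdx2 per kb in each library, and Prdx1 minus Prdx2 was -0.80 ± 0.43. With the length of the principal transcript instead of all exons the mean of this pair was -0.03. Prdx4 of the secretory pathway had levels of 7.16, 7.27, 7.34 and 7.46. Prdx6, which also has phospholipase activity, had levels of 8.32, 8.51, 8.05 and 7.93. Prdx1 lay above each of them per kb, by 1.65 ± 0.62 over Prdx4 and by 1.95 ± 0.33 over Prdx6.

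The mitochondrial Prdx3 was the lowest peroxiredoxin per kb, with levels of 5.32, 4.95, 3.72 and 4.36. Prdx5 minus Prdx3 was 5.04 ± 0.63 per kb and exceeded 4.2 in each library. Library 1 was 3.02-fold above library 3 for Prdx3 (1.97-fold with median-ratio factors). Srxn1, the sulfiredoxin that restores overoxidised peroxiredoxins, was detected at 7.29 ± 0.48.

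Thioredoxin passes electrons to peroxiredoxins and is itself recharged by thioredoxin reductase. Txn1 (chromosome 4, 57943373 to 57956411), the cytosolic form, had levels of 9.18, 9.49, 8.01 and 8.65. Libraries 1 and 2 were above libraries 3 and 4, and the SD was 0.65 (0.45 with median-ratio factors). Txn2, the mitochondrial form, had levels of 7.97, 8.03, 7.35 and 7.59. Txn1 minus Txn2 was 3.10 ± 0.34 per kb, and 1.40 with principal transcript lengths.

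The reductases carry a selenocysteine at the last but one codon, and the end of each coding sequence is shown with that TGA in capitals to set it beside the peroxidases above.
Txnrd1: atcctccagtctggctgcTGAggttaa
Txnrd2: cctactgtgactggttgcTGAggctaa
Txnrd3: attactcagaaaggctgcTGAggctag
In all 3 sequences TGA follows a cysteine codon (tgc) and precedes a glycine codon and a stop. Txnrd1, the cytosolic reductase, had levels of 7.10, 6.56, 6.34 and 6.34. Txnrd2, the mitochondrial one, had levels of 4.65, 4.53, 4.62 and 4.22. Txnrd1 minus Txnrd2 was 1.39 ± 0.30 per kb, with the largest difference in library 1. Txnrd3, best known from testis, had levels of 3.44, 2.85, 2.32 and 3.62, and was the lowest of the 3 per kb (1.56 ± 0.59).

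Glutaredoxins use glutathione directly, and some of them handle iron-sulfur clusters. Glrx3, a cytosolic iron-sulfur protein, had levels of 8.34, 8.59, 8.42 and 8.25. Glrx5, its mitochondrial counterpart in cluster assembly, had levels of 7.45, 8.05, 7.75 and 7.64. These were the 2 highest glutaredoxins per kb. Glrx, the classical cytosolic enzyme that removes glutathione from proteins, had levels of 5.77, 6.20, 5.55 and 5.82. The mitochondrial Glrx2 had levels of 5.21, 5.14, 5.30 and 5.17, and its SD was 0.07 as deposited, the smallest of the detected members, but 0.31 with median-ratio factors. Glrx minus Glrx3 was -2.70 ± 0.22 per kb, and Glrx5 minus Glrx2 was 3.77 ± 0.28. Txn1 exceeded Glrx by 5.39 ± 0.43 per kb.

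Of the superoxide dismutases, Sod1 (chromosome 16, 90220742 to 90226322), the copper-zinc enzyme of the cytosol, had levels of 9.57, 10.07, 9.91 and 9.86. Sod3, the form secreted into the extracellular matrix of the artery wall, had levels of 9.00, 8.21, 8.04 and 7.88. It was highest in library 1 under both scalings. Sod2, the manganese enzyme of mitochondria, had levels of 5.79, 5.72, 5.64 and 5.48. Sod1 minus Sod2 was 5.53 ± 0.28 per kb, the largest mean of the 24 pairs, and Sod1 minus Sod3 was 1.48 ± 0.67. Both rest on the exon length: with principal transcripts Sod1 rose from 7.87 to 10.50 per kb, the highest of all members, and the pairs became 7.39 and 4.11.

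Catalase breaks down hydrogen peroxide in peroxisomes. Cat had levels of 6.87, 6.21, 5.46 and 5.95, and Gpx1 exceeded it by 3.71 ± 0.73 per kb. Hmox1 (chromosome 8, 75093591 to 75100596), the inducible heme oxygenase, had levels of 9.02, 9.45, 9.14 and 8.78. Nqo1, a quinone reductase and a classical NRF2 target, had levels of 6.63, 6.75, 6.06 and 6.15. Hmox1 minus Nqo1 was 2.53 ± 0.29 per kb, between 2.21 and 2.91 in each library.

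Glutathione is made in 2 steps, by the glutamate-cysteine ligase of a catalytic (Gclc) and a modifier subunit (Gclm) and then by the synthetase Gss. Gsr reduces the oxidised form. Gclc had levels of 5.00, 4.56, 3.74 and 3.39. Gclm had levels of 6.22, 6.38, 5.47 and 5.54. Both subunits were higher in libraries 1 and 2 than in libraries 3 and 4, and this held with median-ratio factors, with SDs of 0.52 for Gclc and 0.27 for Gclm. Gclm minus Gclc was 0.99 ± 0.38 per kb.

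Gss had levels of 7.38, 7.68, 7.47 and 7.62, and unlike the ligase subunits it was lowest in library 1. Gclc minus Gss was -2.71 ± 0.80 per kb, between -1.73 in library 1 and -3.58 in library 4. The Gss model lies across Acss2 on the other strand and short predicted genes, so its reads may include theirs. Gsr had levels of 4.98, 4.40, 3.51 and 3.15, a 3.57-fold range (2.63-fold with median-ratio factors).

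NRF2 and its inhibitor differed in their spread. Nfe2l2 had levels of 6.40, 5.95, 5.07 and 5.54, and Keap1 had levels of 7.14, 7.28, 6.98 and 7.12. Nfe2l2 minus Keap1 was -1.09 ± 0.50 per kb and negative in each library. The SD of Nfe2l2 was 0.57 as deposited and 0.30 with median-ratio factors, and that of Keap1 was 0.12 and 0.21.

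Of the 21 cytosolic, mitochondrial and peroxisomal glutathione S-transferases, 15 were detected. By class these were 2 of 4 alpha (Gsta), 1 of 1 kappa (Gstk), 5 of 7 mu (Gstm), 1 of 2 omega (Gsto), 2 of 2 pi (Gstp), 3 of 4 theta (Gstt) and 1 of 1 zeta (Gstz). Gstp1 (chromosome 19, 4035411 to 4037912), the pi class enzyme found in many tissues, had levels of 7.62, 7.95, 7.38 and 7.50. Gstm2 had levels of 7.72, 7.15, 7.27 and 7.52. Gsto1, which also reduces dehydroascorbate, had levels of 7.74, 8.23, 6.75 and 7.13.

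These 3 genes from 3 classes led the family per kb, at 6.98 ± 0.25, 6.67 ± 0.26 and 6.45 ± 0.65. Gstm1 had levels of 5.69, 5.02, 5.51 and 6.18 and lay below Gstm2 by -1.63 ± 0.35 per kb as Gstm1 minus Gstm2. Gstp1 exceeded Gstm1 by 1.94 ± 0.67 and Gsto1 by 0.54 ± 0.42 per kb. The last difference was as small as 0.11 in library 2, although its sign was the same in each library.

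Gsta4, which conjugates the lipid peroxidation product hydroxynonenal, had levels of 4.28, 5.24, 4.67 and 4.90. Gsta3, another alpha class enzyme, had levels of 4.65, 4.92, 2.64 and 2.99. Gsta4 minus Gsta3 per kb was 1.42 and 2.10 in libraries 1 and 2 and 3.81 and 3.69 in libraries 3 and 4. Gstm5 was detected at 6.46 ± 0.40, Gstt1 at 6.26 ± 0.31, Gstz1 (the isomerase of tyrosine breakdown) at 5.27 ± 0.11, Gstm4 at 5.08 ± 0.44 and Gstm7 at 4.99 ± 0.46. The lower part of the family per kb held Gstt3, with levels of 5.05, 4.72, 3.94 and 4.19, Gstt2 (4.19 ± 0.43) and Gstk1 (2.30 ± 0.27). The Gstt3 model shares 6840 bases with Gm20441 on the same strand, which had levels of 4.56, 4.66, 4.00 and 4.04. Whether the same reads entered both values was not tested.

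Near-identical copies limit several transferase values. The coding sequences of Gstp1 and Gstp2 were 98.1% identical, with a shared run of 300 bases, and those of Gsta1 and Gsta2 were 97.6% identical. Gstp2 had only 34, 53, 136 and 45 reads in libraries 1 to 4, and Gstp1 had 5732, 7163, 3653 and 5331. As deposited, library 3 was thus highest for Gstp2 and lowest for Gstp1. Whether reads of Gstp1 placed on Gstp2 made up its value was not tested. Gstm3 shared 89.4% of its coding sequence with Gstm1, and its model overlaps Gstm6 by 1417 bases on the same strand. Gstm3 had 2, 1, 13 and 0 reads and Gstm6 had 23, 13, 0 and 3 reads.

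The other undetected transferases also had few reads. Gsta1 had 24, 43, 10 and 44 reads, and Gsto2 had 48, 46, 23 and 15. Gsta2 and Gstt4 had at most 3 reads in any library. Gsta1 and Gsto2 passed the detection level in some libraries but not in all 4.

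Microsomal glutathione transferases sit in membranes and form a family of their own. Mgst1 (chromosome 6, 138140316 to 138156755), which also reduces lipid peroxides, had levels of 6.40, 5.43, 3.51 and 4.19. Mgst3 (chromosome 1, 167371966 to 167393841) had levels of 3.71, 4.55, 5.24 and 4.87. The libraries fell in the reverse order for these genes: library 1 was highest for Mgst1 and lowest for Mgst3, and library 3 the opposite. This order held under both scalings, with a 7.38-fold range for Mgst1 and 2.89-fold for Mgst3 as deposited, and 4.81-fold and 4.43-fold with median-ratio factors.

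Mgst1 minus Mgst3 per kb was 1.81, 0.01, -2.60 and -1.55 (mean -0.58 ± 1.92, exact two-sided sign-flip permutation p = 0.75, adjusted p = 0.75, n = 4). The sign of this mean turned with other exon lengths (0.20 with principal transcripts) and without library 3 (0.09). Mgst2 was not detected, at 34, 60, 17 and 16 reads.

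The share that each gene took of its family's summed level per kb shows which enzyme dominated. These shares depend on the exon length: with principal transcripts, 7 of the 8 largest shares moved by more than their SD. Txn1 took 85.4% ± 3.4 of the thioredoxin and reductase total (67.4% with principal transcripts and 57.1% without division by length). Sod1 took 71.9% ± 9.7 of the superoxide dismutases, between 57.4% in library 1 and 77.7% in library 4, and 93.6% with principal transcripts. Gpx4 took 49% ± 6.9 of the glutathione peroxidases, and Gpx1 took 26.2% ± 2.1. In the peroxiredoxins the total was divided among Prdx5 (39.7% ± 2.2), Prdx2 (30.7% ± 3.0) and Prdx1 (17.9% ± 4.0). When levels were not divided by length, Prdx2 took the largest share (34.8% ± 3.3) and Prdx5 took 31.6%.

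Glutaredoxins were divided between Glrx3 (48.3% ± 2.2) and Glrx5 (41.2% ± 2.4). Gss took 60.3% ± 11 of the genes of glutathione synthesis and reduction, from 47% in library 1 to 71.3% in library 4. No glutathione S-transferase dominated, and Gstp1 took 22.2% ± 2.7. The make-up of the microsomal family changed most between libraries, as Mgst3 took 22%, 49.2%, 85.4% and 74.3% and Mgst1 took 77.4%, 49.5%, 14.1% and 25.3%.

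**Figure D3:**
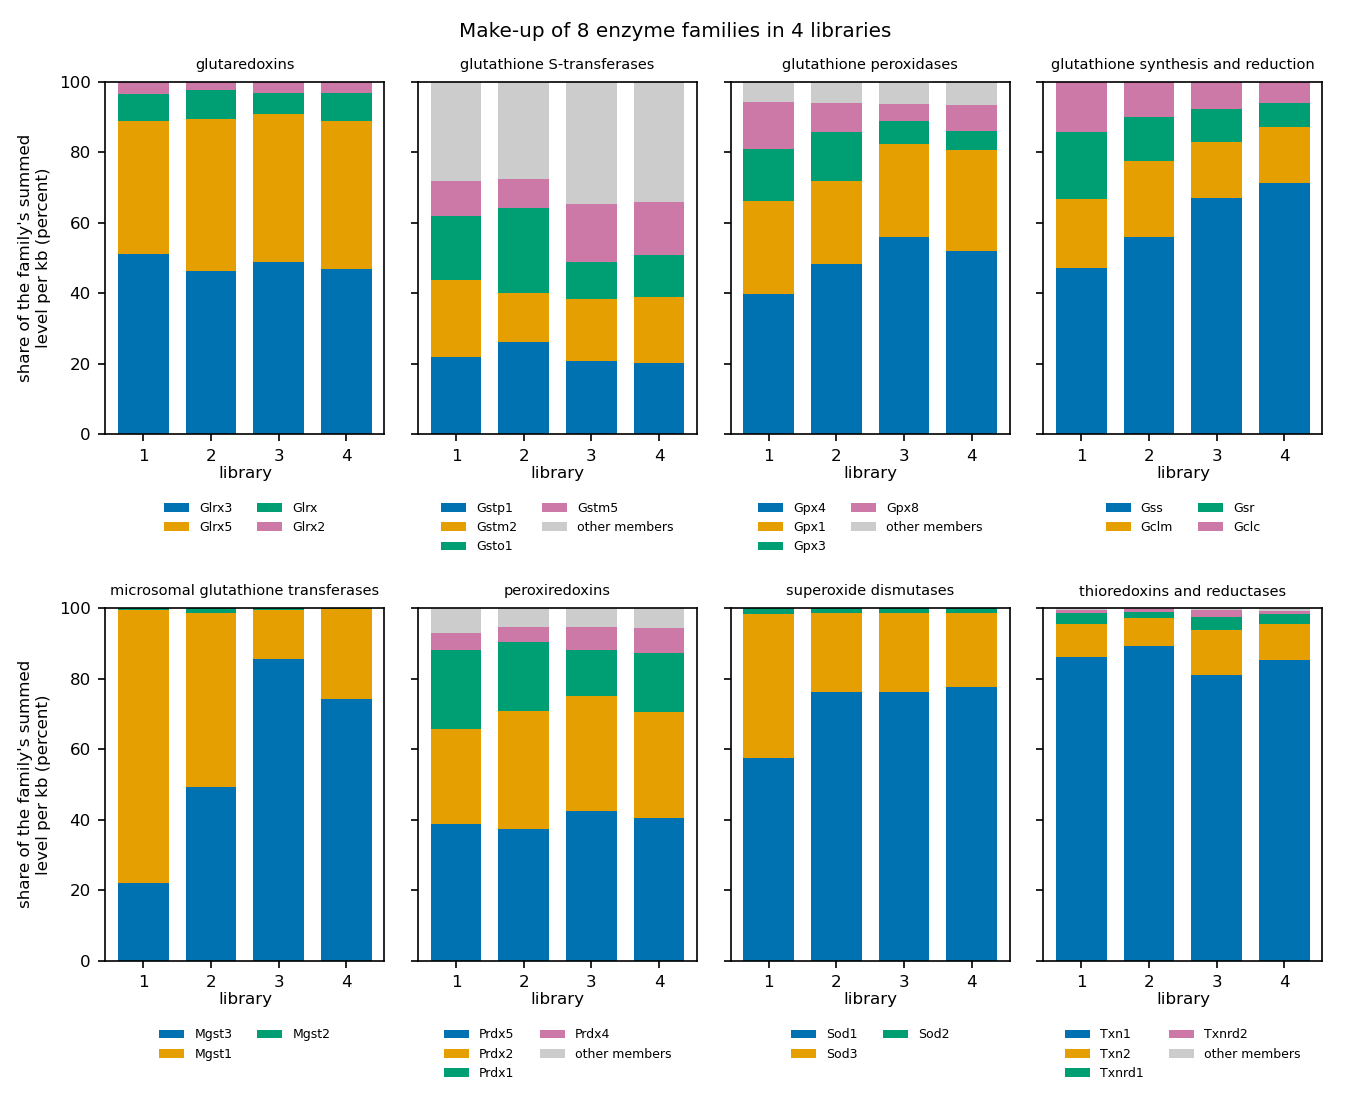
Share (percent) of the summed level per kb of exon taken by each gene in 8 enzyme families, 1 bar per library, with up to 4 leading genes coloured and the rest grey. Txn1 fills most of each thioredoxin bar (85.4% on average), and the Mgst3 part of the microsomal bars runs from 22% in library 1 to 85.4% in library 3.

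Differences between the libraries were then compared over the members. An SD over the 4 libraries above 0.5 was found in 15 of 50 detected members (30%), beside 40.5% of all detected genes. With median-ratio factors the count was again 15, beside 30.7% of all detected genes, but only 8 genes were above 0.5 under both scalings. These were Mgst1, Gsta3, Gstp2, Gsr, Gclc, Gpx3, Mgst3 and Txnrd3. The SD above 0.5 was found as deposited only for Cat, Gsto1, Gstt3, Nfe2l2, Prdx1, Prdx3 and Txn1, and with median-ratio factors only for Gpx4, Gsta4, Gstm1, Gstm5, Gstm7, Gstt1 and Gstt2. Gstt3 lay just inside the threshold as deposited and Sod3 just outside, both at 0.50 after rounding. Without library 3, 10 members were above 0.5 as deposited. Counting error gave an SD of at most 0.20 for a detected member, that of Gstp2. The median SD of detected members was 0.38, against 0.43 for all detected genes, and 0.36 against 0.37 with median-ratio factors.

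**Figure D4:**
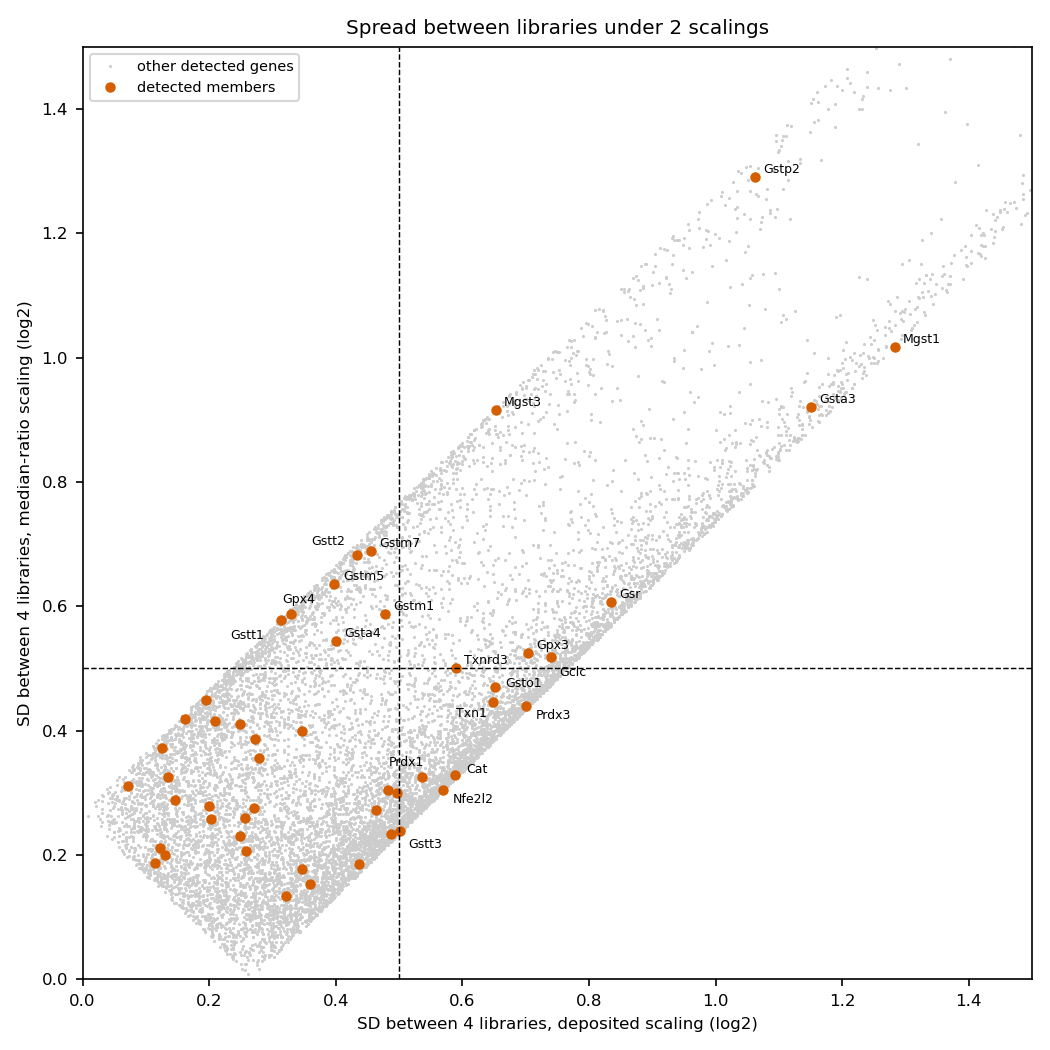
SD of the level over the 4 libraries (log2) under the deposited scaling (horizontal) and the median-ratio scaling (vertical), with 50 detected members in orange, other detected genes in grey and dashed lines at 0.5. The axes end at 1.5, and 158 other genes lie beyond. The 8 members in the upper right exceed 0.5 on both axes.

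The 7 genes above 0.5 only as deposited were all lowest in library 3, and the 7 above 0.5 only with median-ratio factors were lowest there in library 1 or, for Gstm1, in library 2. Under the deposited scaling, library 1 held the highest value of 16 members (32%, beside 53.6% of all detected genes). Library 2 held the highest value of 21 (42%, beside 23.6%), library 3 of 6 (12%, beside 12%) and library 4 of 7 (14%, beside 10.8%). The lowest value lay in library 1 for 13 members (26%, beside 16.3%), in library 2 for 5 (10%, beside 13.2%), in library 3 for 20 (40%, beside 52.9%) and in library 4 for 12 (24%, beside 17.5%). With median-ratio factors the highest value lay in libraries 1 to 4 for 10, 15, 21 and 4 members, beside 31%, 21.6%, 30.3% and 17.2% of all detected genes. The lowest value lay there for 26, 3, 12 and 9 members, beside 34.4%, 20.2%, 28.7% and 16.7%. The count of members highest in library 3 thus went from 6 to 21 with the scaling, and the share of all detected genes went from 12% to 30.3%.

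**Figure D5:**
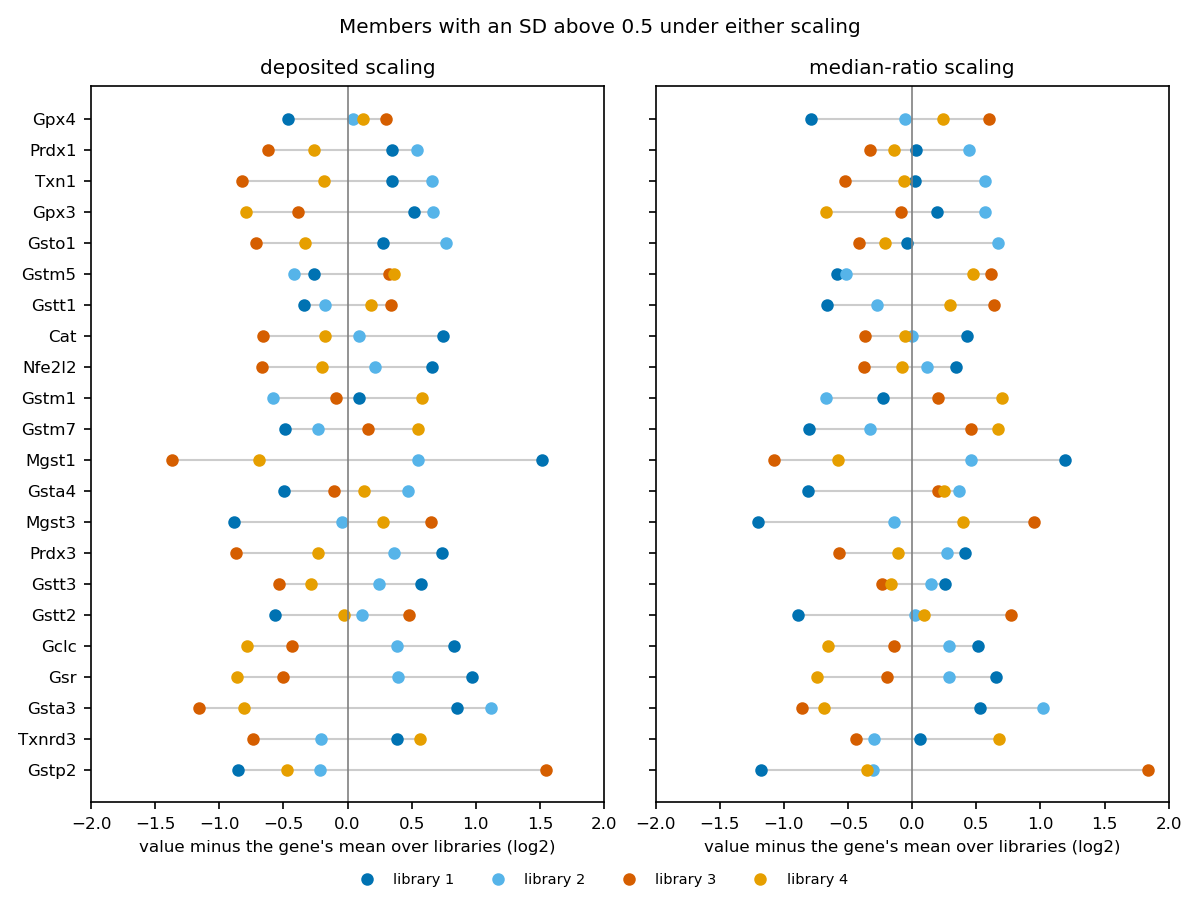
Level in each library minus the gene's mean over libraries (log2) for the 22 members with an SD above 0.5 under either scaling, deposited scaling at left and median-ratio scaling at right. Mgst1 and Mgst3 run in opposite library orders in both panels, and library 3 stands apart for Gstp2.

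Of the 8 genes above 0.5 under both scalings, 5 (Mgst1, Gsta3, Gsr, Gclc and Gpx3) were higher in libraries 1 and 2 than in libraries 3 and 4 under both. Adventitial fibroblast markers lay on the same side as deposited: Dpt had levels of 7.15, 7.02, 2.32 and 1.92, and the summed level of the 8 markers was 12.04 in library 1, 11.58 in library 3 and 11.65 in library 4, with library 2 next to library 1. With median-ratio factors this sum lay between 11.72 in library 1 and 11.91 in library 2 and no longer divided the libraries that way. Gsn, the highest of the 8 markers (11.65, 11.69, 11.50 and 11.58 as deposited), made up most of the sum. Each of the other markers, such as Dpt and Serpinf1 (8.53, 8.28, 4.86 and 4.18 as deposited), was higher in libraries 1 and 2 under both scalings. The summed level of the 8 leukocyte markers was 5.76, 5.39, 3.35 and 3.63, and C1qb had no reads in libraries 3 and 4. Lyz2 and C1qa were also higher in libraries 1 and 2. Cd14 (2.69, 3.20, 2.39 and 3.22) and Cd68 (0.75, 0.28, 0.93 and -0.48) did not divide the libraries that way. Smooth muscle markers were lower in libraries 1 and 2, with summed levels of 13.54, 13.14, 14.59 and 14.86. The sum of the mesothelial markers was also lower there (6.26, 6.13, 7.12 and 6.63), although Msln and Lrrn4 were higher in libraries 1 and 2. The sum of the endothelial markers (6.19, 5.75, 6.30 and 4.71) did not divide the libraries that way. The sides of the leukocyte, smooth muscle and mesothelial sums held with median-ratio factors. The part of other cells in the differences of these 5 genes was not tested, and in bulk RNA fewer cells of a type and less RNA per cell cannot be told apart. Mitochondrial genes took 0.0653%, 0.133%, 0.382% and 0.113% of reads, highest in library 3, and their part was not tested either.

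Promoters were searched for the core of the antioxidant response element, the site that NRF2 binds, because many members are known NRF2 targets. The letters TGACNNNGC were sought on both strands in RefSeq promoter windows on GRCm38.p6, from 250 bases before to 50 after each gene start. Of the 60 members, 53 had a window, and 10 of these held the letters (18.9%), beside 14% of the 27025 genes with a window. A gene can have several windows. Counted by window, 10 of the 71 windows of members held the letters, beside 12.4% of all 32851 windows, so the shares lay close together. The 10 members were Gsta3, Nfe2l2, Srxn1, Gstm5, Gstm7, Gclm, Prdx1, Mgst1, Txnrd1 and Sod1. A match is a run of letters, not a measured binding site. For 4 members described above the match (capitals) lay as follows, printed on the strand that reads TGACNNNGC.
Prdx1: ctacgggggaTGACTCAGCgctttccctg
Gclm: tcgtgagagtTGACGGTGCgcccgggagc
Mgst1: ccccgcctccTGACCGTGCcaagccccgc
Gsta3: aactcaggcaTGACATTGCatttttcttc
The windows are chr4:116685456-116685484, chr3:122245413-122245441, chr6:138140461-138140489 and chr1:21240454-21240482, the first 3 printed from the minus strand. The matches began 133, 134, 56 and 121 bases before the RefSeq gene starts, which can differ from the deposited coordinates. The Mgst1 match lies inside the deposited Mgst1 model. Prdx1 at 7.89 and Gsta3 at 1.68 per kb lay far apart in level, and each held a match.

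The other genes of these pathways, in 7 lists, were described by counts, and of each list the 3 genes with the highest deposited level are named, which is not an order per length. Counts of detected genes are to be read beside the 47.4% of all genes in the table that were detected. Counts of genes with an SD above 0.5 are given as deposited and then with median-ratio factors, to be read beside 40.5% and 30.7% of all detected genes. Of 20 NRF2 targets outside the members, 20 were detected, with a median level of 7.52 ± 0.35, and 10 and 5 had an SD above 0.5. Named by level were the ferritin heavy chain Fth1 (11.91 ± 0.21), the autophagy receptor Sqstm1 (9.96 ± 0.44) and the ferritin light chain Ftl1 (9.63 ± 0.26). Slc7a11, the cystine carrier that feeds glutathione synthesis, had levels of 2.69, 2.88, 0.45 and 0.21. It was high in the same libraries as Gclc, Gclm and Gsr, where the median of all detected genes was also higher as deposited. With median-ratio factors, each of these genes still was higher in libraries 1 and 2 than in libraries 3 and 4. The SD of Slc7a11 was 1.42 as deposited and 1.20 with median-ratio factors.

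Of 10 NRF2 partners and regulators 9 were detected, all but Bach2, and 3 and 1 had an SD above 0.5. Named by level were Nfe2l1 (9.94 ± 0.37), Maff (8.79 ± 0.08) and Mafk (8.76 ± 0.21). Bach1, a repressor that competes with NRF2, had levels of 5.63, 4.44, 3.23 and 3.85, the same library order as Nfe2l2. The median of all detected genes had this order too as deposited (5.49, 5.22, 4.78 and 4.95). Bach1 and Nfe2l2 kept the order with median-ratio factors. The SD of Bach1 was 1.02 as deposited and 0.76 with median-ratio factors. Mafg, a partner of NRF2, was at 6.32 ± 0.58. All 12 genes of NADPH supply were detected, 5 and 3 with an SD above 0.5, and those named by level were Pgd (9.41 ± 0.40), Idh2 (8.02 ± 0.45) and G6pdx (7.93 ± 0.25).

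Of 16 genes for glutathione precursors, export and breakdown, 15 were detected, all but Slc1a1, and 10 and 7 had an SD above 0.5. Slc3a2 (7.76 ± 0.10), the partner chain of Slc7a11, Abcc1 (6.65 ± 0.78), an exporter, and Oplah (6.49 ± 0.17) were those named by level. For oxidant sources, 5 of 16 genes were detected, and 3 and 3 had an SD above 0.5. Those named by level were Rac1 (7.99 ± 0.66), Cyba (7.95 ± 0.25) and Xdh. Xdh, the xanthine oxidoreductase, had levels of 7.50, 7.41, 1.63 and 2.84, with an SD of 3.05 as deposited and 2.80 with median-ratio factors. Nox4, the NADPH oxidase subunit known in smooth muscle, had levels of 4.75, 2.45, 1.81 and 2.53, so library 1 stood above the other 3. This held with median-ratio factors, and the SD was 1.28 as deposited and 1.05 with them.

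All 7 genes of selenoprotein synthesis were detected, 2 and 1 with an SD above 0.5, and Sephs2 (6.89 ± 0.52), Trnau1ap (6.83 ± 0.27) and Secisbp2 (4.85 ± 0.12) were those named by level. These genes supply the selenocysteine that the TGA codons of Gpx1, Gpx3, Gpx4 and the reductases call for. All 18 other redox proteins were detected, 6 and 7 with an SD above 0.5. Park7 (9.99 ± 0.37), Selenow (9.35 ± 0.50, listed as Sepw1) and Txndc5 (8.81 ± 0.49) were named by level, and Txnip, the thioredoxin inhibitor, was at 6.96 ± 0.52.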

How the data were processed

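Per the labels' protocols, RNA of cultured aortic medial cells (integrity number 7.8 to 9) went into stranded poly(A) libraries from 4 ug of total RNA. The submitters' processing notes name Trim Galore, cutadapt, TopHat and GRCm38. How reads were counted, on which annotation and with which strand setting is not given in the sources used here. The authors deposited log2 values for 25965 genes in 4 libraries. The values are whole reads times a library constant, on the log2 scale, without division by length, and genes without reads stand at 0.9 read. Dividing by the value of 1 read gave whole numbers (within 0.05) for 99.7% to 99.8% of values above that floor. These reads may count a fragment repeatedly, and limits cover counting error only.

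Exon lengths (all exons merged) came from GENCODE M21 and matched 94.5% of genes and all 60 members. Coordinates of genes are those of the deposited table. A gene was detected with log2 of at least 0 in 4 of 4 libraries and variable with an SD above 0.5. Differences per kb within libraries went into an exact permutation test (two-sided, 16 sign flips) with Benjamini-Hochberg adjustment over 24 pairs. No comparison between groups was possible with 1 group.

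The members, gene lists and pairs were chosen with earlier results of these data known. Values in all 4 libraries are given for detected members in a pair, highest in their family or with an SD above 0.5, others as mean ± SD, undetected ones as reads. Of each list the 3 highest genes are named, with Slc7a11, G6pdx, Nox4, Bach1, Mafg and Txnip in any case. Alternatives were other detection thresholds, scalings, lengths and SD thresholds, no filter, and leaving out each library. Planned comparisons of protein sequences were not analysed here, and coding sequences of GENCODE transcripts were compared instead. Only the call of an SD above 0.5 was tested on simulated data, in which unchanged genes differed between libraries by counting error alone. Software was matplotlib 3.10.9, pandas 2.3.3, scipy 1.17.1 and numpy 2.4.6 under Python 3.11.15.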

Additional observations from a re-analysis of the deposited data

Results flagged for a closer look

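Among the 50 detected members, the level of 1 had a library far from the other 3 by Dixon's test at the 95% level for 4 samples. This was Prdx2, with a level of 10.81 in library 2 against 10.11, 10.18 and 10.08 in libraries 1, 3 and 4. With median-ratio factors Prdx2 no longer passed (the gap was 0.44 of the range, against 0.86 as deposited) and Gsta4 did (0.85, against 0.41). Chance flags about 1 in 20 such groups.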

How the results depend on the processing

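Detected members numbered 50, between 49 and 53 under other thresholds and median-ratio factors, and 50 to 51 with each library left out. The count with an SD above 0.5 (15) was 14 with CPM, 22 with no filter, 3 with an SD above 1 and 2 with median-ratio factors and an SD above 1, a setting chosen after seeing the data; fewer genes pass a higher threshold by construction. It ran from 10 (without library 3) to 18 with a library left out. The median level of all members (5.81) was 6.42 over detected members and 4.49 per kb, both on another set or scale by construction, and 5.72 to 5.91 with a library left out. Pairs with 1 sign in 4 of 4 libraries (22) numbered 20 without division by length, 22 with the longest transcript, 21 with principal transcripts (chosen after seeing the data) and 22 to 23 with a library left out. Mgst1 minus Mgst3 turned from -0.58 to 0.29 without division by length and to 0.20 with the longest and with the principal transcript, and ran from -1.38 to 0.09 with a library left out (0.09 without library 3); the cause was not tested. Apart from this pair, no mean difference changed sign under these settings. The largest share passed from Mgst3 to Mgst1 under each other length, and from Prdx5 to Prdx2 (34.8% without division, 38.7% with the longest transcript). Largest shares moved by more than their SD in 3 of 8 families without division, 6 with the longest and 7 with the principal transcript. No paired analysis was possible because there was only 1 group. Unknown counting rules limit the values of overlapping and near-identical genes.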
